A study of Mus musculus with 6 samples.

Results

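The BCL2 family decides whether a cell under stress keeps its mitochondria intact. Its survival members (BCL-2, BCL-XL, MCL-1 and A1) hold the outer mitochondrial membrane closed, its pore-forming members BAX and BAK open it to release cytochrome c, and its BH3-only members (BIM, PUMA, NOXA and BID) sense stress and either block the survival proteins or switch on BAX and BAK. In T cells, BCL-2 is sustained by interleukin 7 and interleukin 15, MCL-1 is needed for survival, and BIM is the main killer when cytokine or antigen is withdrawn. The 10 genes described here were taken from a list of family symbols, matched to the Ensembl IDs of the table, and all 10 were found among its 26181 genes. They comprise 4 survival genes (Bcl2, Bcl2l1, Mcl1 and Bcl2a1b), 4 BH3-only genes (Bcl2l11, Bbc3, Pmaip1 and Bid) and 2 pore-forming genes (Bax and Bak1).

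The libraries came from RNA of splenic CD8+ T cells of wild-type C57BL/6 mice that were 6 weeks old when a 7-week diet began. One group of 3 libraries (replicates 1 to 3) came from mice on the diet labelled ND, and the other 3 came from mice on CDAHFD, a high-fat diet without choline whose protein is replaced by amino acids and which is used to bring on steatohepatitis. No transgene or deletion was labelled, and neither the purity of the cells nor the number of animals behind a library was given in the sources used here. Because separate animals are not stated, p-values measure no more than the spread among these libraries, and that spread may be technical. Values are the deposited normalised counts, that is reads per gene divided by one factor per library, from libraries of 25314988 to 28067393 reads.

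The labelled cell type was present in both groups: Cd8a stood at 32889 in ND and 27886 in CDAHFD libraries. Of 20 T cell marker genes 16 fell, by a median of 0.30 on the log2 scale over the whole list, and the list took 0.867% to 0.892% of each ND library and 0.729% to 0.751% of each CDAHFD library. Genes of other spleen cells were also present and moved with the diet. The 17 macrophage markers all rose, with Vcam1 going from 3402 to 47155 and Csf1r from 3327 to 27030.4, and their sum went from between 0.0942% and 0.105% to between 0.723% and 0.784% of a library. The sums of the neutrophil markers (0.0154% to 0.0157% in ND, 0.0462% to 0.0501% in CDAHFD), of the plasma cell markers (0.00941% to 0.00982%, then 0.131% to 0.138%) and of the erythroid markers (0.00342% to 0.00358%, then 0.0339% to 0.0351%) rose with them, while the B cell sum went from between 0.216% and 0.221% to between 0.188% and 0.203%. No gene of these marker lists had a mean of 0 in either diet. The NK cell sum went from between 0.0125% and 0.0132% to between 0.0270% and 0.02775%, with 4 of its 7 genes risen. The median log2 fold change of those 7 genes was only 0.15, so the sum does not stand for the list as a whole. The dendritic cell sum went from between 0.0351% and 0.0375% to between 0.0276% and 0.0303%. BCL2 family genes are expressed in most of these cells, and what part those cells had in the values below was not tested. In bulk RNA, fewer cells of a type and less RNA per cell cannot be told apart.

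Of the 10 members, 5 rose in CDAHFD libraries, 1 fell and 4 did not pass the threshold (limma, adjusted p under 0.05 over 15819 genes). The genes that rose were Bcl2 and Bcl2l1 on the survival side and Bcl2l11, Bbc3 and Pmaip1 on the death-promoting side, each by 1.3-fold to 1.49-fold. The gene that fell was Bak1. Among all genes tested 47.1% passed the threshold (24.6% upwards and 22.5% downwards), so 6 changed members of 10 is not far from that background. The 3 values of one diet lay wholly apart from the 3 of the other for 7 of the 10 members, against 54.3% of all tested genes. The members had a median log2 fold change of 0.33, beside -0.01 for all tested genes. Between 15.2% and 20.03% of all tested genes had a larger rise than the 5 members that rose, which places these rises well inside the range of the whole comparison. Survival genes (2 risen of 4, median 0.35) and death-promoting genes (3 risen and 1 fallen of 6, median 0.19) did not separate by direction.

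**Figure D1:**
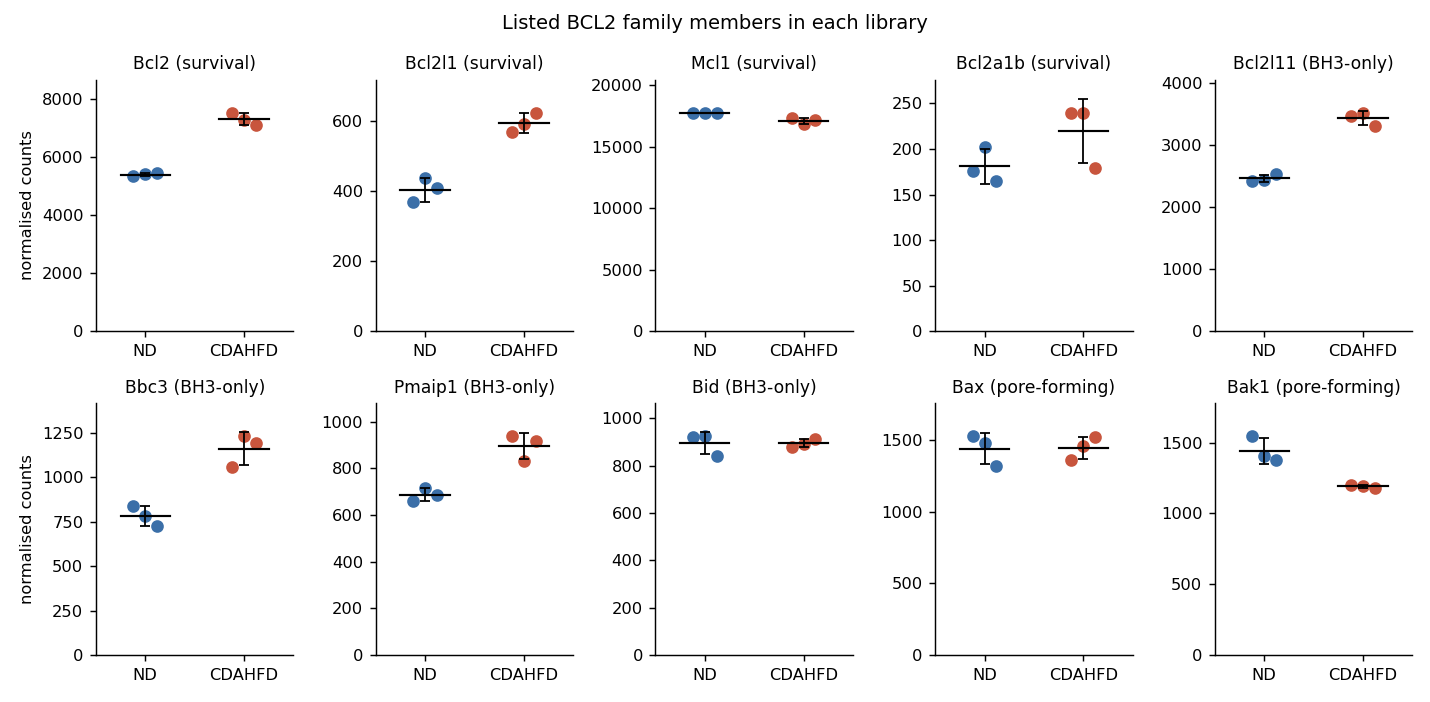
Normalised counts (vertical axes, each starting at 0) of the 10 members in the 3 ND libraries (blue) and the 3 CDAHFD libraries (red), with the mean (line) and SD (bar) of each diet. Bcl2, Bcl2l1, Bcl2l11, Bbc3 and Pmaip1 stand higher in every CDAHFD library than in any ND library. Bak1 stands lower, as does Mcl1 by little, and Bcl2a1b, Bid and Bax overlap.

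Bcl2 (ENSMUSG00000057329, chr1:106538178-106714274 in mm10, minus strand) encodes the founding survival protein, which binds BIM and keeps BAX and BAK inactive. It read 5331, 5407 and 5428 normalised counts in ND replicates 1 to 3, and 7520.4, 7280.1 and 7090.4 in CDAHFD replicates 1 to 3. All CDAHFD values lay above all ND values, and the gap between diets was many times the spread within either. The means were 5389 ± 50.8 and 7297 ± 216 (SD, n = 3 per diet), or 0.44 on the log2 scale (SE 0.04) with a limma adjusted p = 1.90e-10. An exact two-sided permutation test of the 6 values gave p = 0.1, the smallest that 3 against 3 allows, and the same limit holds for every other member whose groups do not overlap.

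Bcl2l1 (ENSMUSG00000007659, chr2:152780668-152831728, minus strand) encodes BCL-XL, a survival protein that activated T cells induce, together with a shorter isoform that promotes death. The table gives 1 value for both isoforms. Its ND values were 369, 437 and 408 normalised counts and its CDAHFD values 569, 593 and 625, so the groups did not overlap. The rise from 404.7 ± 34.0 to 595.7 ± 28.4 (SD, n = 3) was 1.47-fold (log2 fold change 0.56, SE 0.08, limma adjusted p = 9.22e-07). Per length of exon it remained the lowest of the 10 members in both diets.

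Mcl1 (ENSMUSG00000038612, chr3:95658788-95663176, plus strand) encodes a short-lived survival protein on which T cells depend. Its values were 17706, 17740.4 and 17782 normalised counts in ND and 17309, 16858 and 17172 in CDAHFD libraries. Every CDAHFD value was below every ND value, but by little, and the difference did not pass the threshold (log2 fold change -0.05, 95% interval -0.13 to 0.02, limma adjusted p = 0.251). The interval does not reach the rise of Bcl2. The direction depends on the scaling: relative to T cell marker genes, described further down, Mcl1 rose by 0.19.

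Bcl2a1b (ENSMUSG00000089929, chr9:89199209-89207827, plus strand) is one copy of the A1 genes, which lie close to each other and encode nearly the same survival protein, made in myeloid cells and activated lymphocytes. It read 176, 202 and 165 normalised counts in ND and 240.003, 239.6 and 179 in CDAHFD libraries. CDAHFD replicate 3 fell among the ND values, so the groups overlapped, and the log2 fold change of 0.27 (SE 0.12) missed the threshold (limma adjusted p = 0.0772). Without CDAHFD replicate 3 it would be 0.41 (adjusted p = 0.0104), and without ND replicate 2 it would be 0.35 (adjusted p = 0.0453). Of the 50-base stretches in its annotated transcripts, 79.2% also occurred in transcripts of another gene, mostly Bcl2a1d. Exons of Gm29094 cover 49.1% of the exon bases of Bcl2a1b on the same strand. No source used here gives the counting tool, so reads may be shared out among the copies or left uncounted. Bcl2a1a rose from 193 ± 13.2 to 260 ± 6.58 (log2 fold change 0.43, SE 0.10, limma adjusted p = 0.00114), while Bcl2a1d, named after its value had been seen, was at 428 ± 63.6 and 461 ± 69.1 (adjusted p = 0.486).

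Summed over Bcl2a1a, Bcl2a1b and Bcl2a1d, a total that sharing among these 3 copies cannot change, the values were 759, 897 and 750.5 in ND and 1005, 877 and 939.9 normalised counts in CDAHFD libraries. Reads given to Gm29094, or left uncounted because they match several copies, would be missing from these sums. The sums overlapped, since ND replicate 2 lay above CDAHFD replicate 2, and their means were 802 ± 82.2 and 941 ± 64.3 (SD, n = 3). In the same libraries the neutrophil and macrophage markers, genes of cells that make A1, rose as given above, and their part in these sums was not tested.

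Bcl2l11 (ENSMUSG00000027381, chr2:128126038-128162547, plus strand) encodes BIM, the BH3-only protein that binds every survival member. It read 2419, 2438 and 2524 normalised counts in ND and 3466, 3518 and 3305 in CDAHFD libraries, without overlap. The means of 2460.1 ± 56.1 and 3429.6 ± 111 (SD, n = 3) give a 1.39-fold rise (log2 fold change 0.48, SE 0.04, limma adjusted p = 2.41e-10).

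Bbc3 (ENSMUSG00000002083, chr7:16308393-16318205, plus strand) encodes PUMA, a BH3-only protein induced by p53 and by FOXO factors. Its values were 840.2, 782 and 724 in ND and 1059, 1232 and 1195 normalised counts in CDAHFD libraries. No CDAHFD value fell within the ND range. It had the largest log2 fold change of the 10 members, 0.57 (SE 0.07, limma adjusted p = 3.91e-08), close to the 0.56 of Bcl2l1, with means of 782 ± 58.1 and 1162 ± 91.0 (SD, n = 3).

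The DNA just before the start sites was read next, since several members rose together. Windows of 250 bases before a start were available from RefSeq (build GRCm38.p6, the same coordinates as mm10) for 9 of the 10 members, 14 windows in all. They were searched on both strands for 7 motifs: the FOXO core (TGTTTAC), a STAT site (TTCNNNGAA), an AP-1 site (TGANTCA), an E-box (CACGTG), the GC box (GGGCGG), a p53 half-site and an NF-kB site. The FOXO core occurred in 2 of the 14 windows, 1 of Bcl2l11 and 1 of Bbc3, and in 3.17% of 32851 such windows of all genes. It began 227 bases before the start of Bcl2l11 (written -227) and 167 bases before that of Bbc3 (-167). GC boxes occurred in 10 of the 14 windows and in 32.7% of all. A p53 half-site was found for Bax alone (7.13% of all windows), an NF-kB site for Bbc3 and Bcl2l1 (3.9%), an E-box for Bax and Bbc3 (6.02%) and an AP-1 site for Bcl2a1b (6.75%). Matches overlapped only with others of the same motif, namely GC boxes and the NF-kB letters within windows of Bbc3, and 2 of the windows of Bbc3 overlap each other. No STAT site was found in the 14 windows, against 7.02% of all.

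The windows of Bcl2, as a survival gene that rose, and of the BH3-only genes with a FOXO core are printed 5′ to 3′ in the direction of the gene, with capitals on the FOXO core (TGTTTAC, or GTAAACA on the other strand) and on GC boxes. None of the 3 windows overlaps an exon of the GENCODE annotation. The windows of Bcl2 (chr1:106714291-106714540, minus strand, 74.8% G and C) and Bcl2l11 (chr2:128125788-128126037, plus strand, 72% G and C) lie outside the annotated gene, and that of Bbc3 (chr7:16310011-16310260, plus strand, 72.4% G and C) lies within the gene, between exons. A match is a description of these letters and not a measured binding site.
Bcl2: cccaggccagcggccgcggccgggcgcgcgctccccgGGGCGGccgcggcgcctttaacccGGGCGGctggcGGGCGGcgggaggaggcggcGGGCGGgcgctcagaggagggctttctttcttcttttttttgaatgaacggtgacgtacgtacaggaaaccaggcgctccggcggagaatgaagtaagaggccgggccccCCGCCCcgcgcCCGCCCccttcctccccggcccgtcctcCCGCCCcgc
Bcl2l11: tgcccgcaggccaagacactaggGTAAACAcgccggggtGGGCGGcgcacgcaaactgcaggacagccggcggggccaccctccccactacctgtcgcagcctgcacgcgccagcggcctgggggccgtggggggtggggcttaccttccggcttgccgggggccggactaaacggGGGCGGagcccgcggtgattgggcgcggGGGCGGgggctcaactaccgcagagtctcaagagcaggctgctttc
Bbc3: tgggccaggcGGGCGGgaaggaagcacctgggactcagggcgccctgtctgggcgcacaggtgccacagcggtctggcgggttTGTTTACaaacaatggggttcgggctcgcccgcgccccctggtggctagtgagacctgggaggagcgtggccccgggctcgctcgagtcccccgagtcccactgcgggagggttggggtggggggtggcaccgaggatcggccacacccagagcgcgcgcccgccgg

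Of the factors that read such sites, Foxo1, which drives genes of resting T cells, fell by 0.39 on the log2 scale (SE 0.04, limma adjusted p = 2.37e-09), with means of 7417 ± 239 in ND and 5645 ± 137 in CDAHFD libraries (SD, n = 3). Foxo3 was chosen for naming after its value was known, and its means were 2782 and 3036 (log2 fold change 0.13, adjusted p = 0.0221). Messenger RNA levels of these factors say nothing of their location in the cell, which governs their activity.

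Pmaip1 (ENSMUSG00000024521, chromosome 18, 66458533 to 66465565, plus strand) encodes NOXA, which binds MCL-1 and A1 and leads MCL-1 to be degraded. It read 659, 715 and 685 normalised counts in ND and 938, 833 and 916 in CDAHFD libraries, again with the diets apart. The rise from 686.5 ± 28.2 to 896 ± 55.0 was 1.3-fold (SD, n = 3; log2 fold change 0.38, SE 0.06, limma adjusted p = 1.46e-05), the smallest of the 5.

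Bid (ENSMUSG00000004446, chr6:120891930-120916853, minus strand) encodes the BH3-only protein that caspase 8 cleaves, which links death receptors to mitochondria. Its values were 923, 924.5 and 842 in ND and 879.7, 890.2 and 914 normalised counts in CDAHFD libraries, and the diets overlapped. Its log2 fold change was -0.00 with a 95% interval of -0.12 to 0.12 (limma adjusted p = 0.984), and relative to T cell marker genes it was 0.24. On the opposite strand Bcl2l13 covers 17.7% of its exon bases, and without a stated strand setting reads from the overlap cannot be assigned to either.

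Bax (ENSMUSG00000003873, chr7:45461697-45466898, minus strand), the pore-forming gene that p53 can induce, read 1525, 1477 and 1317 normalised counts in ND and 1362, 1455 and 1517 in CDAHFD libraries. These ranges were nearly the same. The log2 fold change was 0.01 (95% interval -0.11 to 0.12, limma adjusted p = 0.942). Exons of Gm45808 cover 12.2% of the exon bases of Bax on the same strand. Bak1 (ENSMUSG00000057789, chr17:27019810-27029009, minus strand), its partner in opening the membrane, read 1545, 1408 and 1375 in ND and 1201, 1192 and 1181 normalised counts in CDAHFD libraries. All CDAHFD values lay below all ND values and close to each other, and the fall from 1443 ± 90.2 to 1191 ± 10.1 (SD, n = 3) passed the threshold (log2 fold change -0.27, SE 0.05, limma adjusted p = 1.11e-04). Relative to T cell marker genes the call for Bak1 was lost (-0.03, adjusted p = 0.680). Exons of Ggnbp1, a gene at 120 normalised counts in ND and 103 in CDAHFD libraries, cover 25.5% of the exon bases of Bak1 on the other strand.

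The T cell marker list took a smaller share of CDAHFD than of ND libraries, as given above, so the scaling was varied. When each library was scaled to the geometric mean of the 20 T cell markers instead of the authors' factors, the median log2 fold change of all genes moved by 0.25, and all members moved up by about as much. Under that scaling 9 of the 10 members passed the threshold upwards, beside 8251 genes higher and 979 lower in all, where the authors' scaling gave 3886 and 3563. Bcl2 stood at 0.68, Bcl2l1 at 0.80, Bcl2l11 at 0.72, Bbc3 at 0.82 and Pmaip1 at 0.63. Because that scaling moved all members up, those already risen could only stay higher, and these values are not separate support for their rise. Set against the shift of 0.25, Mcl1 (0.19), Bid (0.24) and Bax (0.25) lay near the median of all genes, 0.23.

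**Figure D2:**
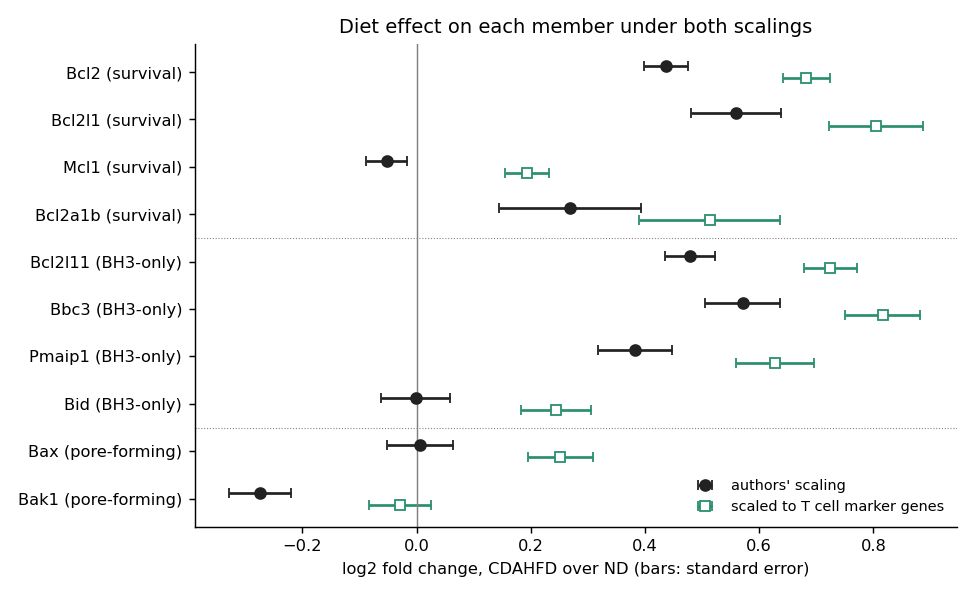
Log2 fold change of each member, CDAHFD over ND, with standard errors as bars, under the authors' scaling (filled circles) and after scaling to T cell marker genes (open squares). The order of the members is the same in both, and the second set lies about 0.25 to the right, with Bak1 moving from -0.27 to -0.03.

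A ratio of 2 members within a library does not depend on any scaling, and it sets the survival side against the death-promoting side directly. The ratios are descriptions and were given no p-value. Bcl2 over Bcl2l11 was 2.20, 2.22 and 2.15 in ND and 2.17, 2.07 and 2.15 in CDAHFD libraries, with means of 2.19 ± 0.0357 and 2.13 ± 0.0526 (SD, n = 3). The diets overlapped, and the log2 difference was -0.04 (SE 0.02). Bcl2 over Bbc3 also overlapped, at 6.92 ± 0.576 and 6.31 ± 0.681, as did Bcl2l1 over Bcl2l11, at 0.164 ± 0.0135 and 0.174 ± 0.0134.

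All 24 ratios of a survival over a death-promoting member were formed. The diets overlapped in 13 of them, 8 were higher in every CDAHFD than in any ND library, and 3 were lower. Since the 24 ratios share the same 10 genes, they are not separate results. Among single tested genes the diets lay wholly apart for 54.3%, and no such share was worked out for ratios of other genes. The 3 lower ones were those of Mcl1 to the BH3-only genes that rose. Mcl1 over Bcl2l11 was 7.32, 7.28 and 7.05 in ND and 4.99, 4.79 and 5.20 in CDAHFD libraries, without overlap, a log2 difference of -0.53 (SE 0.04). Mcl1 over Pmaip1, the pair in which NOXA opposes MCL-1, was 26.9, 24.8 and 25.9 in ND and 18.5, 20.2 and 18.8 in CDAHFD libraries (log2 difference -0.43, SE 0.05). Mcl1 over Bbc3 was 22.8 ± 1.74 and 14.8 ± 1.38, and Mcl1 over Bid overlapped, at 19.8 ± 1.11 and 19.1 ± 0.475 (SD, n = 3). Over the pore-forming genes, 6 of 8 ratios were higher in CDAHFD libraries without overlap. The other 2 overlapped, namely Bcl2a1b over Bax and Mcl1 over Bax, the latter at 12.4 ± 0.996 and 11.9 ± 0.737. Bcl2 over Bax went from 3.76 ± 0.324 to 5.07 ± 0.427 and Bcl2 over Bak1 from 3.75 ± 0.262 to 6.12 ± 0.130, both without overlap (SD, n = 3). Bcl2 over Mcl1 went from 0.304 ± 0.00226 to 0.426 ± 0.0118, without overlap. Bcl2 over Bid was 5.78, 5.85 and 6.45 in ND and 8.55, 8.18 and 7.76 in CDAHFD libraries, and it and Bcl2l1 over Bid were the 2 ratios to a BH3-only gene that were higher without overlap. Bcl2 over each of the 3 BH3-only genes that rose overlapped between diets.

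**Figure D3:**
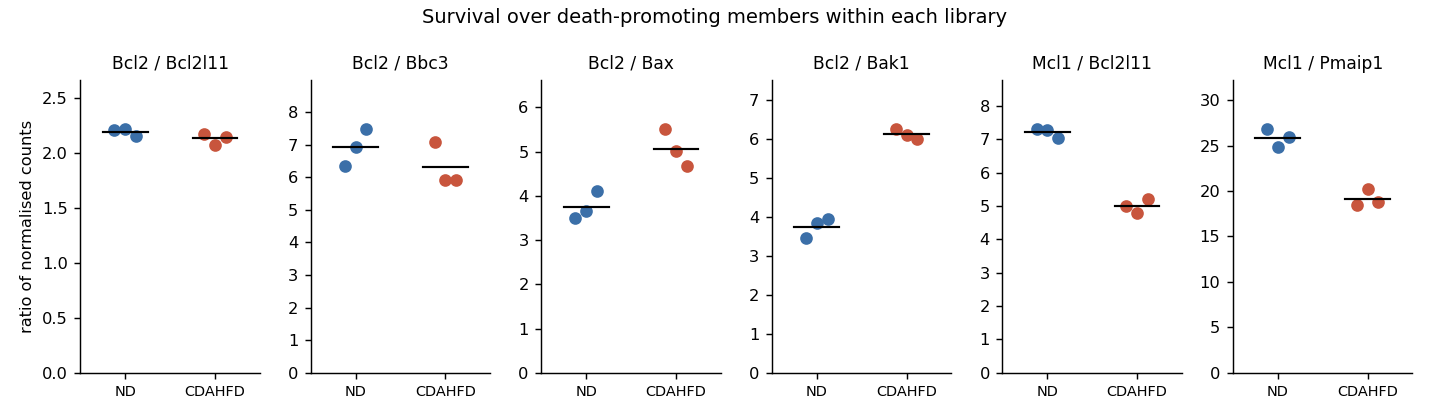
Ratio of normalised counts of a survival gene over a death-promoting gene within each library (vertical axes from 0), for 3 ND (blue) and 3 CDAHFD (red) libraries, with the mean as a line. Bcl2 over Bcl2l11 stays near 2.19 and 2.13, Bcl2 over Bax and Bak1 stands higher in CDAHFD libraries, and Mcl1 over Bcl2l11 and Pmaip1 stands lower.

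Levels of different genes can be compared only per length, here as normalised counts per kb of annotated exon. In ND libraries Mcl1 was by far the highest at 5191 ± 11.3, followed by Bax at 913 ± 69.1, Bak1 at 599 ± 37.5 and Bcl2 at 588.5 ± 5.55 (SD, n = 3). Below them came Bbc3 (368 ± 27.3), Bcl2l11 (306 ± 6.99), Bid (252 ± 13.3), Pmaip1 (251 ± 10.3), Bcl2a1b (222 ± 23.3) and Bcl2l1 (88.2 ± 7.41). Bak1 and Bcl2 overlapped in this order, as did Bid, Pmaip1 and Bcl2a1b, while the other neighbours did not. In CDAHFD libraries Bcl2, at 797 ± 23.5, passed above Bak1, at 495 ± 4.2, and Bbc3, at 547 ± 42.8, reached a level that overlapped that of Bak1. Pmaip1, at 328 ± 20.1, stood apart from Bid, at 252 ± 4.92. Summed per kb, the 4 survival genes gave 6058, 6123 and 6086 in ND and 6303, 6149.6 and 6154 in CDAHFD libraries, sums in which Mcl1 dominates. The 6 death-promoting genes gave 2807, 2716 and 2550.1 in ND and 2885, 2993 and 3020.1 in CDAHFD libraries. In both sums every CDAHFD value lay above every ND value, for the survival genes by little (highest ND 6123, lowest CDAHFD 6149.6). Unlike the ratios, these sums depend on the scaling and were formed under the authors' scaling only. Among single tested genes the diets lay wholly apart for 54.3%, and no such share was worked out for sums.

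**Figure D4:**
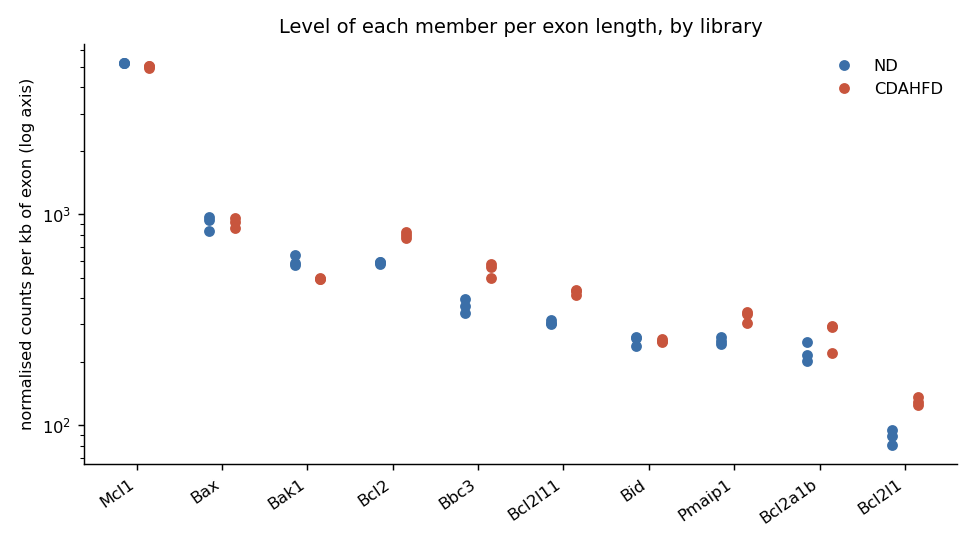
Normalised counts per kb of annotated exon (log axis) of each member in 3 ND (blue) and 3 CDAHFD (red) libraries, in the order of the ND means. Mcl1 lies at 4932 or above in all libraries and Bcl2l1 lies lowest. Bcl2 and Bak1 overlap in ND libraries, and Bcl2 lies above Bak1 in all CDAHFD libraries.

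Among 16 further BCL2 relatives, 12 could be tested, and 4 of these rose and 2 fell (median log2 fold change 0.08). Among all tested genes 24.6% passed the threshold upwards and 22.5% downwards, the background for this and the following lists. Scaled to T cell genes the counts were 8 and 1, beside 8251 genes higher and 979 lower of 15833 tested. Only 1 fell under limma without trend and robust, or without ND replicate 1, ND replicate 2 or CDAHFD replicate 2. The BH3-only gene Bmf, which responds to loss of attachment and to withdrawal of cytokines, went against Bcl2l11 and Bbc3. It read 631, 676.5 and 649 in ND and 467, 419.5 and 494 normalised counts in CDAHFD libraries, and fell by 0.50 on the log2 scale (SE 0.07, limma adjusted p = 2.14e-06). The survival gene Bcl2l2, which encodes BCL-W, rose from 117 ± 17.5 to 174 ± 14.5 (SD, n = 3; log2 fold change 0.57, SE 0.14, adjusted p = 8.90e-04). Bcl2l15 rose from 3.97 ± 0.799 to 23.6 ± 4.33, on few reads. Bcl2l13, a mitochondrial member, fell by 0.13 (adjusted p = 0.0213), but by T cell marker scaling it stood at 0.11 higher. Bok, a relative of Bax, had a mean of 2.71 in ND and 1.32 in CDAHFD libraries and was not tested. The symbols Bcl2a1c, Bcl2l10 and Hrk were not matched.

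Downstream of the mitochondria, cytochrome c assembles with APAF1 and caspase 9 and so activates the executioner caspases. Of 20 genes of this stage 3 rose and 7 fell (median -0.05), beside 47.1% of all tested genes called in either direction. After scaling to T cell genes 11 rose and 1 fell, where 8251 of all 15833 tested genes rose. Xiap, which encodes a caspase inhibitor, rose from 3427 ± 129 to 4059.7 ± 167 normalised counts (SD, n = 3; 0.24 on the log2 scale, SE 0.04, limma adjusted p = 3.14e-05). Casp9 rose by 0.23, a call that is lost without ND replicate 2 (0.14, adjusted p = 0.121). Birc5, which encodes survivin and serves cell division, fell from 289 to 171 (-0.75), Casp6 from 659 to 499 (-0.40), and the nuclease gene Dffb from 656 to 495 (-0.41). After scaling to T cell genes Casp6 (-0.15) and Dffb (-0.16) missed the threshold.

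Death receptors feed into the family through caspase 8 and BID. Of 13 genes of that branch 8 rose and 1 fell (median 0.20), beside 24.6% and 22.5% of all tested genes. Scaled to T cell genes 12 rose and 0 fell (limma), where 8251 of all 15833 tested genes rose. The tumour necrosis factor receptor genes Tnfrsf1b, from 2649 ± 25.5 to 4394 ± 96.1, and Tnfrsf1a, from 1058 ± 18.4 to 1695 ± 39.3, rose by 0.73 and 0.68 (limma adjusted p = 7.75e-15 and 4.02e-12; SD, n = 3), and Fasl had the largest rise, by 2.33. Both receptors are also expressed by macrophages, whose markers rose, and that part was not tested. Casp8, which cleaves BID, fell from 3495 to 2995 (log2 fold change -0.22, adjusted p = 7.10e-05) but stood at 0.023 after scaling to T cell genes.

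Upstream lie interleukin 7 and interleukin 15, which keep BCL-2 high in T cells, with their receptors and kinases. Of 9 such genes 6 rose and 1 fell (median 0.62), beside 24.6% and 22.5% of all tested genes. Scaled to T cell genes all 9 rose, where 8251 of all 15833 tested genes rose. Il2rb, the chain shared by the interleukin 2 and interleukin 15 receptors, rose from 10120.1 ± 183 to 17971 ± 445 (log2 fold change 0.83, SE 0.04, limma adjusted p = 5.95e-17; SD, n = 3), Il15ra from 299 to 630.3 (1.08) and Il7r by 0.97. The shared chain Il2rg fell by 0.10 (adjusted p = 0.0428), a call lost in 7 of 17 alternatives and turned to 0.14 higher after scaling to T cell genes. Genes of STAT5, which carries these signals to Bcl2, were lower: Stat5a went from 2480.5 to 2057 (-0.27, adjusted p = 1.02e-05) and Stat5b from 6337 to 5734 (-0.14, adjusted p = 0.00366). Relative to T cell genes Stat5a stood at -0.02 and missed the threshold, and Stat5b turned to 0.10 higher.

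Of 18 transcriptional regulators of the family 5 rose and 4 fell (median 0.04), beside 47.1% of all tested genes called in either direction. After scaling to T cell genes 14 rose and 1 fell, where 8251 of all 15833 tested genes rose. Without CDAHFD replicate 2 only 3 rose, and under limma without trend and robust 2 rose and 2 fell. Runx3, a factor of CD8+ T cells, rose from 3704 to 4769.7 (0.36) and Stat3 from 6809 to 8248 (0.28). Kmt2a rose by 0.18. Among 12 kinases, ligases and partners that act on the family proteins, 5 rose and 7 did not pass (median 0.09), beside the same 47.1%. Under limma without trend and robust 3 rose, and all 12 rose after scaling to T cell genes. The co-chaperone Bag3, a heat shock target, rose by 1.35 on the log2 scale (SE 0.12, limma adjusted p = 9.06e-11), with means of 115 ± 12.3 and 293 ± 9.2 (SD, n = 3). Pim1, a kinase that phosphorylates BAD and is itself a STAT5 target, rose from 2390.1 to 2933 (0.30), and Mapk8 rose by 0.22.

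Bbc3, Pmaip1 and Bax are classic p53 targets, and 12 other targets were listed beside them. Of these 11 were tested, and 5 rose and 1 fell (median 0.34), beside 47.1% of all tested genes called in either direction. With a filter mean of at least 50, or without CDAHFD replicate 2, only 3 rose. The number that fell was 2 with no filter, with equal totals, and without ND replicate 1 or CDAHFD replicate 1. Scaled to T cell genes 9 rose and 1 fell, where 8251 of all 15833 tested genes rose. Sesn2, which is also induced by amino acid stress, rose from 300.1 to 639 (1.09) and Zmat3 from 673 to 859 (0.35). Gdf15 rose from 5.43 to 54.8 (3.27), on only 6, 8 and 2 reads in the ND libraries. Sesn1, a target shared by p53 and FOXO factors, fell from 3996 to 3052.5 (-0.39, limma adjusted p = 4.55e-09). The cell cycle inhibitor gene Cdkn1a had means of 116 in ND and 114 in CDAHFD libraries (adjusted p = 0.872), and Trp53 itself had 5235 and 4910.3 (adjusted p = 0.0676); both were picked for naming with their values known.

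**Figure D5:**
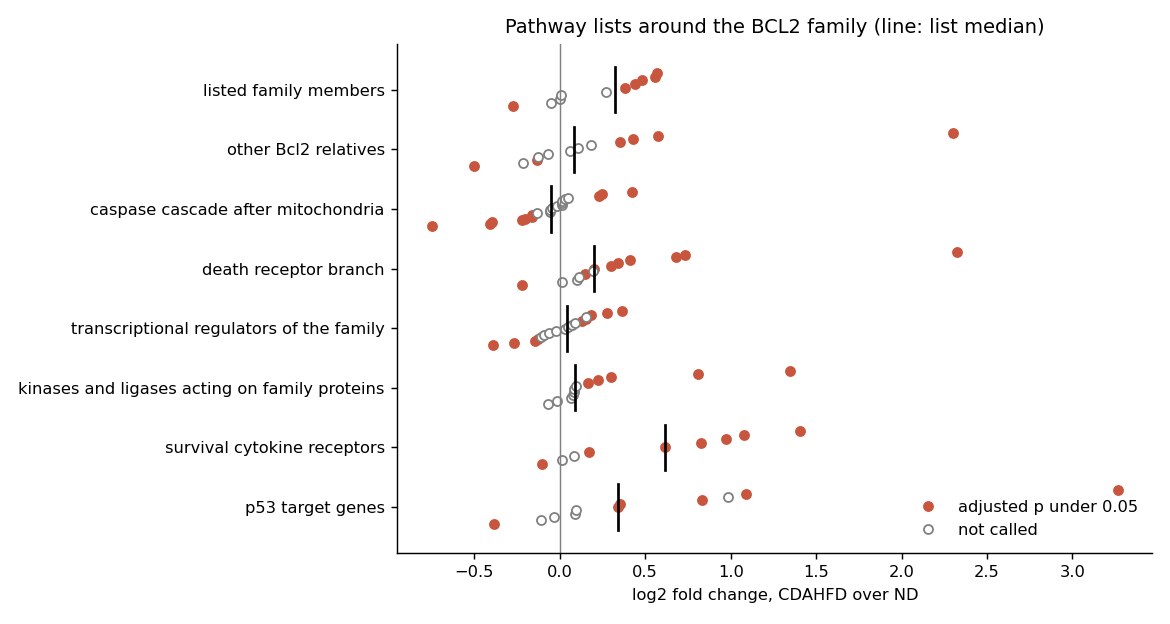
Log2 fold change, CDAHFD over ND, of each tested gene of the family and of 7 lists around it (filled red, adjusted p under 0.05; open, not called), with the list median as a line. Medians run from -0.05 for the caspase stage to 0.62 for the cytokine receptors, beside 0.33 for the family, and the genes of most lists lie on both sides of 0.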

How the data were processed

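The build is mm10, per the submitters' processing notes. Aligner, counter, strand setting and annotation are not given in the sources used here, and per the labels' protocols either a whole-RNA or an mRNA kit was used. The deposited table holds signal values, read counts divided by a factor per library. Every value was a whole multiple of its column's smallest (100% whole within 0.001), so reads were recovered by division. Columns spelled CDHFD were matched to CDAHFD, the only other group. Symbols matched 26147 IDs, and coordinates, exon lengths and transcripts came from GENCODE M21 (mm10). limma 3.58.1 (trend, robust, R 4.3.3) ran on log2(normalised count + 1) for 15819 genes with a mean of at least 10, with diet as its term and Benjamini-Hochberg adjustment over all tested genes. Fold changes on that scale understate low genes. edgeR 4.0.16 and DESeq2 1.42.0 ran on recovered reads. The main limma fit, edgeR and DESeq2 were checked on simulated counts with far fewer changed genes than were called here. The permutation test and the other settings were not checked in this way. The members and lists were chosen with earlier results of these data known. Named were all members, up to 3 called genes per direction and list, and the 2 highest markers; 1 gene the rule names is not reported here. In the symbol table Marchf5 carries its older name.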

Additional observations from a re-analysis of the deposited data

How the results depend on the processing

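For the 10 members, 158 of 160 values kept their side of the threshold over 16 alternatives (pseudocounts, filters, equal totals, trimmed mean of M-values scaling, plain limma, edgeR, DESeq2, the replicate block and each library left out). The 2 others were Bcl2a1b without ND replicate 2 and without CDAHFD replicate 3, as given above. The sign of the uncalled Bid changed in 6 of the 16 (-0.05 to 0.02) and that of the uncalled Bax in 3 (-0.06 to 0.05), and no other member changed sign. Of 32 other genes under the naming rule, 6 (Bcl2l13, Casp9, Il2rg, Kmt2a, Mapk8 and Stat5b) changed call in at least 1 of these. Scaling to T cell marker genes changed more: 8251 genes were called higher and 979 lower, 9 members were higher and 0 lower (limma, 0 also at an unadjusted p under 0.05), and Mcl1 (0.19), Bid (0.24), Bcl2l13 (0.11), Casp8 (0.023), Stat5b (0.10) and Il2rg (0.14) reversed direction. That follows from its construction, since the markers themselves fell. Same-numbered libraries did not deviate together (r = 0.0408, -0.0508 and 0.0623), and with the replicate block 3806 genes were called higher and 3444 lower, with 5 members higher and 1 lower. Recovered reads behind the members run from 169 upward per library, so sampling limits Bcl2a1b most. Intervals cover the spread of these libraries only.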
